A study of Mus musculus with 4 samples.

Results

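The genes described here encode the phagocyte NADPH oxidase and its proton channel. They are the 6 genes *Cybb*, *Cyba*, *Ncf1*, *Ncf4*, *Rac2* and *Hvcn1*, taken by symbol from the 28585 genes of each library. Each symbol matched 1 gene, and all 6 were among the 17953 genes tested, those averaging 0.1 FPKM or more (FPKM are fragments per kilobase of transcript, scaled to the mapped fragments of the library). The data were 4 bulk RNA sequencing libraries of PMN-MDSCs, polymorphonuclear myeloid-derived suppressor cells, which were sorted from mouse spleen on postnatal day 7 as CD11b+ Ly6C low or negative, Ly6G+ cells. There were 2 libraries from Dhps cko pups and 2 from Dhps flox pups. Both genotypes carried the floxed *Dhps* allele (Dhps fl/fl), and the Dhps cko pups also carried Lysm cre, a Cre recombinase expressed from the *Lyz2* locus in neutrophils, monocytes and macrophages. *Dhps* encodes deoxyhypusine synthase, which places hypusine on the translation factor eIF5A. The study calls the pups littermates. The number of pups per library is not given in the sources used here. Transcripts of both sexes were in every library, as given below with *Cybb*, which points to more than 1 pup in each. The p-values measure the spread between these libraries and not between pups.

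The oxidase makes superoxide by passing electrons from NADPH across the membrane to oxygen. Its catalytic core is a membrane heterodimer of gp91phox (NOX2, from *Cybb*) and p22phox (from *Cyba*). In resting cells the core is idle, and on activation a cytosolic complex that includes p47phox (*Ncf1*) and p40phox (*Ncf4*) joins it together with the small GTPase RAC2. The voltage-gated proton channel from *Hvcn1* lets protons follow the electrons, so that charge does not build up. Neutrophils kill microbes with the oxidants that result, and in PMN-MDSCs such oxidants are a known means of restraining T cells. The comparison asked whether transcripts of this machinery differed when *Dhps* was targeted in myeloid cells.

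The FPKM of the libraries summed to between 304281 and 319286, and steps between the lowest values pointed to roughly 29400000 to 32100000 mapped fragments. *Dhps* was at 2.38 and 2.59 FPKM in Dhps cko replicates 1 and 2, and was at 3.57 and 3.11 FPKM in Dhps flox replicates 1 and 2, a Dhps cko mean of 74.4% of Dhps flox. The log2 fold change of *Dhps* came to -0.41 (standard error 0.13; limma, adjusted p = 0.63), so the targeted transcript was lower in both Dhps cko libraries but present in all 4. *Lyz2*, the locus of the Cre, was at 34.5% of its Dhps flox mean in Dhps cko (adjusted p = 0.083 from limma). All 12 neutrophil markers were detected, with *Ngp*, a granule protein gene, the most abundant by its mean over the 4 libraries at 26340 to 27902 FPKM, although *S100a9* stood above it in Dhps cko replicate 2. Markers of other cells were detected too, with summed levels of 465 to 689 FPKM for 6 erythroid genes, 41.5 to 67.7 FPKM for 8 B cell genes, 8.01 to 18.5 FPKM for 8 T cell genes and 296 to 367 FPKM for 10 monocyte and macrophage genes. Of that last sum, 158 to 192 FPKM was *Ly6c2*, an Ly6C gene that the Ly6C low cells of the sort could also carry.

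The membrane subunits, which form 1 heterodimer, are shown first through their promoters. Their log2 fold changes in the comparison that follows had opposite signs, but neither passed adjustment. The part of the promoters in those values was not tested. *Cybb* lies on chromosome X of GRCm38 from 9435252 to 9487771 and *Cyba* on chromosome 8 from 122424776 to 122432930, both on the minus strand in the GENCODE M21 annotation. The RefSeq promoter table (GRCm38.p6) held 3 of the 6 members, *Cybb*, *Cyba* and *Ncf1*. The 250 bases before the start of *Cybb* (chrX:9469325-9469574) and of *Cyba* (chr8:122432941-122433190) are given 5′ to 3′ on the strand of the gene, with matches to a pair of half-sites for interferon regulatory factors (GAAA, then 2 bases of any kind, then GAAA) in capitals.
Cybb: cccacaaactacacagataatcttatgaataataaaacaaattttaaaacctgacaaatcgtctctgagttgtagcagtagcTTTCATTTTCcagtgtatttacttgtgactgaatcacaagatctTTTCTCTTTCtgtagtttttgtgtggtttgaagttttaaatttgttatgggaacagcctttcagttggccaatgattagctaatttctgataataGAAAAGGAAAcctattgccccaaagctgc
Cyba: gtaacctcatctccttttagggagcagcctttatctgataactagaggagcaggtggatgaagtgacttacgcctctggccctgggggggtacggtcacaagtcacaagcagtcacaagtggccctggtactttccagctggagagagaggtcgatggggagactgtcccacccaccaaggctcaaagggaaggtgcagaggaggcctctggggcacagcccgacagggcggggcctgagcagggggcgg
The *Cybb* stretch held 3 matches, at 168 and 124 bases before the start on the opposite strand and at 29 bases on the strand of the gene, and the *Cyba* stretch held 0. The stretch of *Ncf1* held 1, which began 82 bases before the start. Among all 32851 promoters of the table, 2.98% had a match in the same 250 bases. GAGGAA is 1 form of the site that PU.1 binds, and TTGCNNAA is a C/EBP element. Both had 0 matches in the 3 stretches on either strand, against 23.3% and 9.56% of all promoters. Other forms of these sites were not searched, so 0 matches does not mean that such sites are absent. No match overlapped another. A match describes letters in this window and not a bound site. The *Cybb* stretch was 34% G and C and the *Cyba* stretch 60%. The transcript starts of *Cybb* in RefSeq and GENCODE differ, and the stretch shown lies inside the GENCODE gene.

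In both genotypes the oxidase transcripts were among the most abundant of the cells. Together the 6 genes made up 0.795% and 0.760% of the FPKM sum in Dhps cko replicates 1 and 2 and 0.746% and 0.794% in Dhps flox replicates 1 and 2. By mean FPKM over the 4 libraries, *Ncf1* ranked 40, *Rac2* 41, *Cybb* 49, *Cyba* 65 and *Ncf4* 88 of the 28585 genes, whereas *Hvcn1* ranked 745. FPKM are per length, so levels of different genes can be set side by side. *Ncf1* (mean 608 FPKM), *Rac2* (592 FPKM) and *Cybb* (520 FPKM) formed the upper tier. *Rac2* overlapped both of its neighbours between libraries, while *Ncf1* was above *Cybb* in each of the 4. *Cyba* (356 FPKM) came next and was above *Ncf4* (301 FPKM) in each library, with ranges over the 4 libraries that did not overlap. *Hvcn1* (47.7 FPKM) was the lowest in each library. Worked out from the approximate depth and the longest transcript of each gene, these levels stand for roughly 73000 to 77800 fragments of *Cybb* and 3900 to 4200 of *Hvcn1* in a library.

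**Figure D1:**
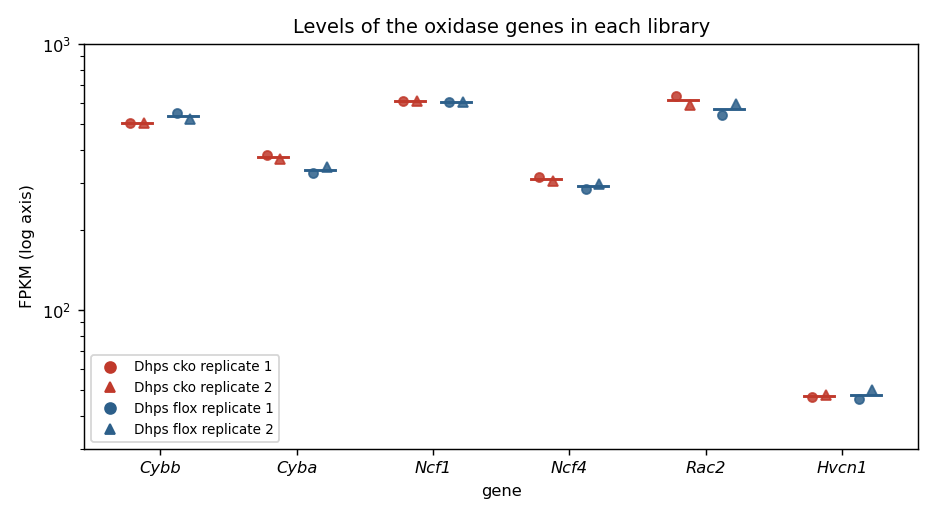
FPKM (log axis) of the 6 oxidase genes in each library, with circles for replicate 1, triangles for replicate 2 and a bar at the mean of each genotype. The genotypes lie close together for each gene, and the step from *Ncf4* (301 FPKM) to *Hvcn1* (47.7 FPKM) is larger than any gap between genotypes.

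*Cybb* measured 506 FPKM in Dhps cko replicate 1 and 503 FPKM in replicate 2, and 549 and 523 FPKM in the Dhps flox replicates. Both Dhps cko libraries were below both Dhps flox libraries, with means of 505 ± 2.79 and 536 ± 18.7 FPKM (SD, n = 2 libraries each). The log2 fold change was -0.09 (standard error 0.06, 95% interval -0.24 to 0.06, adjusted p = 0.81 from limma). Leaving out Dhps flox replicate 1 gave -0.05, and the value was -0.14 after quantile normalization, there with an unadjusted p of 0.022 by limma. On the linear scale the interval runs from 0.849 to 1.04 times the Dhps flox level. *Cybb* is X-linked, and sex-linked genes stood at other levels in Dhps cko than in Dhps flox, though 0 of 5 passed adjustment by limma. At an unadjusted p under 0.05 by limma, 1 was higher and 4 were lower in Dhps cko, beside 4.72% and 2.28% of all genes. *Xist*, the RNA of the inactive X, was at 27.5 and 20.3 FPKM in Dhps cko and 16.2 and 17.2 FPKM in Dhps flox. The Y-linked *Eif2s3y* was at 4.4 and 5.01 FPKM in Dhps cko and 10.7 and 9.29 FPKM in Dhps flox, and *Ddx3y*, *Kdm5d* and *Uty*, also Y-linked, were likewise the lower in Dhps cko. *Xist* and these Y-linked genes were above 0 in every library, so each held RNA of female and of male cells. The part of sex in the value of *Cybb* cannot be told apart from that of genotype here.

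*Cyba* went the other way. It was at 382 and 369 FPKM in Dhps cko replicates 1 and 2, and was at 328 and 344 FPKM in Dhps flox replicates 1 and 2. Both Dhps cko libraries were above both Dhps flox libraries, at 376 ± 9.33 against 336 ± 10.97 FPKM (SD, n = 2 libraries each). The log2 fold change of 0.16 (standard error 0.06, 95% interval 0.01 to 0.31) was the largest of the 6 in size. It had an unadjusted p of 0.039 by limma and did not pass after adjustment over all genes (adjusted p = 0.68). The unadjusted p was 0.21 without Dhps cko replicate 1, 0.13 without Dhps cko replicate 2, 0.11 without Dhps flox replicate 1 and 0.045 without Dhps flox replicate 2, with log2 fold changes of 0.14, 0.19, 0.13 and 0.19. With 1 library on a side, the spread comes from the other genotype and the lone library is assumed to vary like it. After quantile normalization the log2 fold change was 0.08. p22phox is also the partner of other NOX enzymes, but these were near the limit of detection, at 0 to 0.15 FPKM for *Nox1* and at 0 to 0.02 FPKM for *Nox4*. The homologues *Duox1* and *Duox2*, which are not counted among those partners, reached at most 0.02 FPKM in a library. *Cybb* held between 99.969% and 99.996% of the summed FPKM of these 5 catalytic subunit genes in each library.

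The cytosolic genes *Ncf1* and *Ncf4* had log2 fold changes under 0.1 in size. *Ncf1* (chromosome 5, 134220053 to 134229625), whose product carries the complex to p22phox, was at 612 and 611 FPKM in Dhps cko replicates 1 and 2, and was at 603 and 607 FPKM in Dhps flox replicates 1 and 2. It was the steadiest of the members, with replicates apart by 0.002 (Dhps cko) and 0.008 (Dhps flox) on the log2 scale. The log2 fold change of 0.02 (standard error 0.05, 95% interval -0.12 to 0.16, adjusted p = 0.97 from limma) turned negative when the libraries were scaled to TPM (-0.02) or by quantiles (-0.06). Of the exon bases of *Ncf1*, 11.1% overlap *Gtf2ird2* on the opposite strand, which was at 11.7 to 14.4 FPKM. *Ncf4* (chromosome 15, 78244801 to 78262580), whose product binds a membrane phosphoinositide, was at 316 and 305 FPKM in Dhps cko and at 284 and 299 FPKM in Dhps flox. The Dhps cko libraries were the higher pair by a narrow margin. Its log2 fold change was 0.09 (standard error 0.06, 95% interval -0.06 to 0.24, adjusted p = 0.80 from limma). Leaving out Dhps flox replicate 1 or scaling to TPM gave 0.06, and quantile normalization gave -0.0037.

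*Rac2* (chromosome 15, 78559167 to 78572783) encodes the blood cell RAC that turns the complex on in neutrophils. It was at 637 and 591 FPKM in Dhps cko replicates 1 and 2, and was at 543 and 596 FPKM in Dhps flox replicates 1 and 2. Dhps flox replicate 2 lay above Dhps cko replicate 2, so the genotypes overlapped. The log2 fold change was 0.11 (standard error 0.08, 95% interval -0.09 to 0.31, limma, adjusted p = 0.82). Leaving out 1 library gave 0.04 (Dhps flox replicate 1), 0.05 (Dhps cko replicate 1), 0.16 (Dhps cko replicate 2) or 0.18 (Dhps flox replicate 2). *Rac2* made up 90.4% to 91.2% of the summed FPKM of *Rac1*, *Rac2* and *Rac3* in each library, and reads of these similar genes may be split between them. *Hvcn1* (chromosome 5, 122206804 to 122242297) was at 47.0 and 47.9 FPKM in Dhps cko replicates 1 and 2, and was at 46.2 and 49.8 FPKM in Dhps flox replicates 1 and 2. The Dhps cko libraries lay between the Dhps flox libraries. The log2 fold change was -0.02 (standard error 0.06, 95% interval -0.17 to 0.14, limma, adjusted p = 0.98). Leaving out Dhps flox replicate 2 gave 0.04, and leaving out Dhps flox replicate 1 gave -0.07. Of the exon bases of *Hvcn1*, 44.2% overlap *Tctn1* on the opposite strand, which was at 3.19 to 3.78 FPKM. Whether strand was used in counting is not given in the sources used here.

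Over all genes tested, 0 of the 6 members had an adjusted p under 0.05 by limma, where 0.00557% of all genes (1 gene) did. At an unadjusted p under 0.05, *Cyba* alone passed, against 7% of all genes, which divide into 4.72% higher and 2.28% lower in Dhps cko. In counts, 847 genes were higher and 410 lower, against 633 and 493 scaled to TPM and 412 and 413 without Dhps cko replicate 1. The genotypes did not overlap for 4 of the 6, which were *Cyba*, *Ncf1* and *Ncf4* with Dhps cko higher and *Cybb* with Dhps cko lower. Of all genes, 36% did not overlap, 20% with Dhps cko higher and 16% with Dhps cko lower. Among the 330 genes that averaged 100 FPKM or more, as 5 of the members did, the share was 47.6%. The median log2 fold change of the 6 members was 0.05, beside 0.01 for all genes tested and 0.07 for those abundant genes. With 2 libraries a side, exact permutation has a smallest possible p of 0.33. Over the 6 intervals, the lowest bound was 0.849 times the Dhps flox level, for *Cybb*, and the highest 1.24 times, for *Cyba* and *Rac2*.

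**Figure D2:**
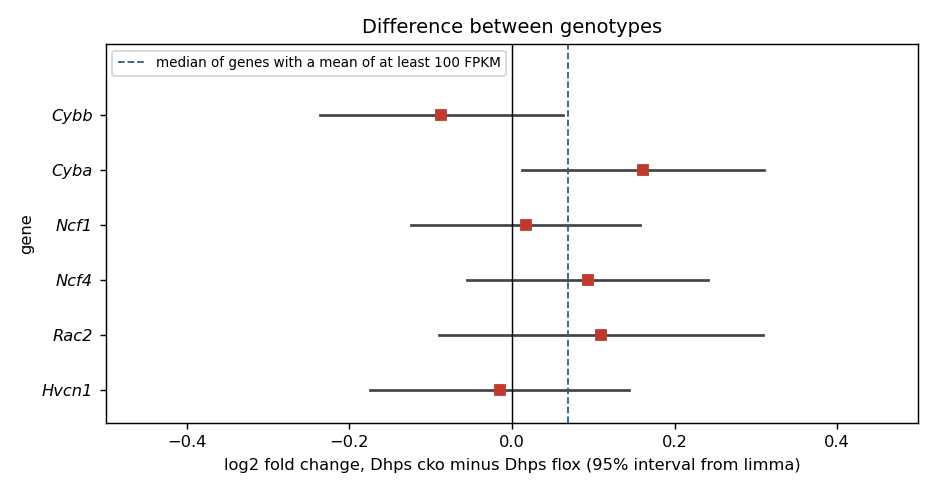
Log2 fold change of Dhps cko against Dhps flox for the 6 members, with 95% intervals from limma and a dashed line at the median of the genes of at least 100 FPKM (0.07). The interval of *Cyba* (0.01 to 0.31) leaves out 0 and the others include it. *Ncf1* turned negative when scaled to TPM or by quantiles, *Ncf4* by quantiles, and *Hvcn1* turned positive without Dhps flox replicate 2.

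Ratios between subunits within a library stay as they are when a library is scaled by 1 factor. The ratio of *Cyba* to *Cybb* was 0.754 and 0.734 in Dhps cko replicates 1 and 2 and 0.598 and 0.657 in Dhps flox replicates 1 and 2. The log2 ratio was higher by 0.25 in Dhps cko, with replicates 0.04 (Dhps cko) and 0.14 (Dhps flox) apart. The ratio of *Ncf4* to *Cybb* was 0.624 and 0.607 in Dhps cko and 0.517 and 0.571 in Dhps flox. *Rac2* stood at 1.26 and 1.18 times *Cybb* in Dhps cko and at 0.988 and 1.14 times in Dhps flox, and *Ncf1* at 1.21 and 1.22 times against 1.10 and 1.16 times. These 4 ratios were higher in both Dhps cko libraries than in both Dhps flox libraries, and they share *Cybb* as the divisor. The same held for 32.1% of all other genes tested and for 70.5% of those averaging 100 FPKM or more, so the count of 4 does not set the oxidase genes apart from other abundant genes. *Cybc1*, a chaperone gene of the membrane core, also lay higher relative to *Cybb* in both Dhps cko libraries. The ratio of *Hvcn1* to *Cybb* overlapped, at 0.0928 and 0.0953 in Dhps cko and 0.0841 and 0.0952 in Dhps flox. Among the cytosolic genes, the ratio of *Ncf1* to *Ncf4* was 1.94 and 2.00 in Dhps cko and 2.12 and 2.03 in Dhps flox, the higher pair being Dhps flox.

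**Figure D3:**
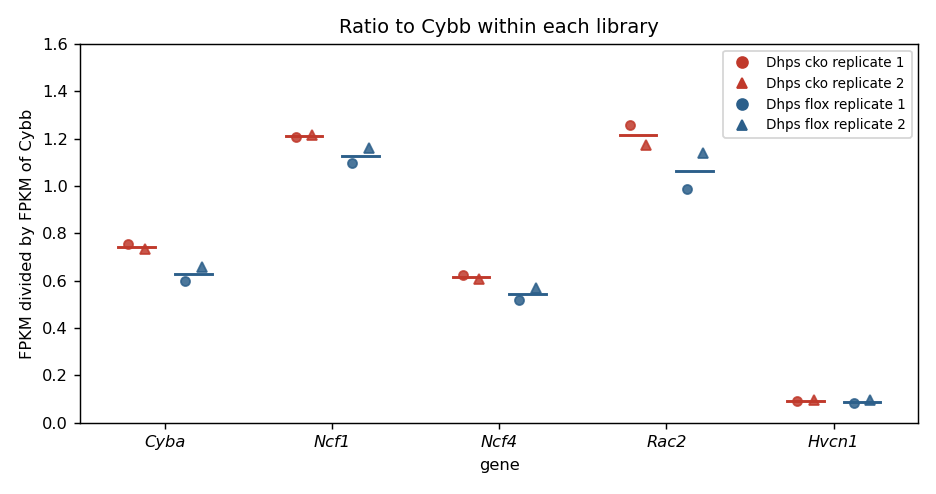
FPKM of each gene divided by FPKM of *Cybb* in the same library, with circles for replicate 1, triangles for replicate 2 and a bar at the mean of each genotype. *Cyba* shows the widest separation, at 0.734 to 0.754 in Dhps cko and 0.598 to 0.657 in Dhps flox, while *Hvcn1* overlaps.

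Other components and homologues of the oxidase were read beside the members. *Rac1* was at 61.5 and 59.5 FPKM in Dhps cko and 57.5 and 57.2 FPKM in Dhps flox. *Rap1a*, a small GTPase that copurifies with the membrane core, overlapped at 35.45 and 39.4 FPKM in Dhps cko and 41.3 and 32.9 FPKM in Dhps flox. Of the 13 symbols in the list of other components and homologues, 11 were listed and 5 were tested. Of these, 0 had an unadjusted p under 0.05 by limma, beside 7% of all genes, so with 5 genes a count of 0 is unremarkable.

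The 7 lists of genes around the oxidase held 79 tested genes, and 0 had an adjusted p under 0.05 by limma. At an unadjusted p under 0.05, 5 were higher and 2 lower in Dhps cko, or 8.86% against the 7% of all genes. Their median log2 fold change was 0.04. The count of 7 was 3 without either Dhps cko replicate, 2 without Dhps flox replicate 1 and 11 without Dhps flox replicate 2. The list with the most was superoxide and peroxide handling, with 4 of 16 higher, 1 lower and a median of 0.16. *Prdx5*, a peroxiredoxin that reduces peroxides, was at 297 and 305 FPKM in Dhps cko and 254 and 259 FPKM in Dhps flox (log2 fold change 0.23, standard error 0.05, adjusted p = 0.52 from limma). *Prdx3*, the mitochondrial peroxiredoxin, was at 7.92 and 8.72 FPKM against 6.36 and 6.56 FPKM. *Txn1*, the thioredoxin that renews peroxiredoxins, and *Gpx3*, a glutathione peroxidase, had log2 fold changes of 0.18 and 0.24 (adjusted p = 0.70 and 0.655 from limma). *Sod3*, the extracellular superoxide dismutase, was the gene on the lower side, at 0.40 and 0.31 FPKM in Dhps cko and 0.81 and 0.96 FPKM in Dhps flox. By the mean over the 4 libraries, the most abundant genes of the list were *Gsr*, glutathione reductase, at 308 to 315 FPKM, and *Gpx1*. *Prdx5* stood above *Gpx1* in Dhps cko replicate 2 and Dhps flox replicate 1. *Gpx1* had a log2 fold change of 0.21 (adjusted p = 0.76 from limma).

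The 11 tested genes for enzymes that supply NADPH ran from a log2 fold change of -0.29 to 0.87, with a median of 0.05 and 9 of them higher in Dhps cko. Both ends belong to *Nnt*, a symbol used by 2 gene identifiers, which were counted apart. Dhps flox replicate 1 stood away from the other libraries for both, at 1.6 FPKM for the one and 3.71 FPKM for the other. *G6pdx*, which opens the pentose phosphate pathway, was at 265 and 272 FPKM in Dhps cko and 253 and 261 FPKM in Dhps flox, and *Tkt*, transketolase, overlapped at 256 to 258 FPKM in Dhps cko and 238 to 259 FPKM in Dhps flox. The genotypes did not overlap for 4 of the 11, all higher in Dhps cko, namely *G6pdx*, *Taldo1*, *Pgd* and *Idh2*. In that direction 20% of all genes did not overlap. In either direction the share was 36% of all genes and 47.6% of those averaging 100 FPKM or more. None of the 11 passed an unadjusted p of 0.05. Among 13 Rac exchange factors and inhibitors, *Tiam1*, a Rac exchange factor, was lower, at 15.5 and 13.6 FPKM in Dhps cko and 16.7 and 18.6 FPKM in Dhps flox (log2 fold change -0.28, adjusted p = 0.68 from limma). *Arhgdib*, which holds RAC2 in the cytosol, was the most abundant of that list at 1516 to 1637 FPKM (log2 fold change 0.09, adjusted p = 0.82 from limma), followed by *Arhgdia*. Of 17 kinases and other priming genes and of 6 channel and pH genes, 0 had an unadjusted p under 0.05, beside 7% of all genes. *Mapk3* led the former at 132 to 144 FPKM, ahead of *Mapk14*, and *Trpm2* the latter at 19.7 to 22.1 FPKM, ahead of *Clcn7*.

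Of 11 tested transcription factor genes linked to the oxidase, 1 passed an unadjusted p of 0.05, where 7% of all genes did. It was *Cebpe*, which drives late granulocyte maturation, at 298 and 266 FPKM in Dhps cko and 235 and 247 FPKM in Dhps flox (log2 fold change 0.23, standard error 0.08, adjusted p = 0.65 from limma). *Spi1*, which encodes PU.1, was at 154 and 152 FPKM in Dhps cko and at 135 and 153 FPKM in Dhps flox, so the genotypes overlapped. The list holds 3 genes of interferon regulatory factors, given here, after their values were seen, because of the motif in the *Cybb* promoter. *Irf1* (18.6 and 21.1 against 17.7 and 17.8 FPKM) and *Irf8* (2.62 and 2.90 against 2.12 and 2.41 FPKM) were higher in both Dhps cko libraries, as were 20% of all genes, and *Irf2* overlapped (12.99 and 14.1 against 12.0 and 13.5 FPKM). None of the 3 passed an unadjusted p of 0.05.

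**Figure D4:**
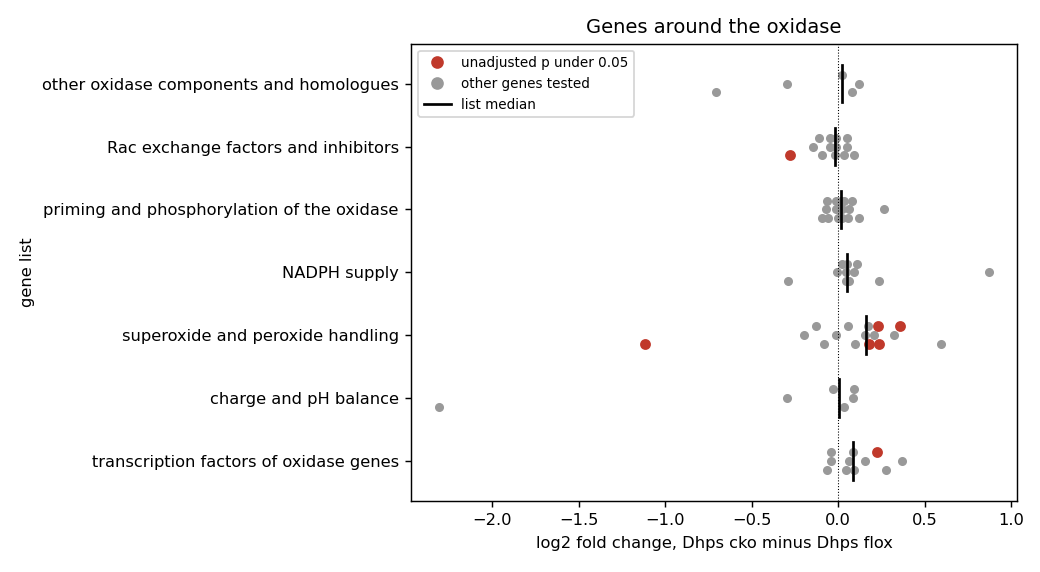
Log2 fold changes of Dhps cko against Dhps flox for the tested genes of the 7 lists around the oxidase, with list medians as black bars and genes of unadjusted p under 0.05 in red. The red genes number 5 on the higher side and 2 on the lower side, *Tiam1* and *Sod3*. The point farthest to the left is *Car4*, listed at 0 in 3 libraries and at 2.35 FPKM in Dhps flox replicate 1.

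Other cells of the spleen carry some of these transcripts, B cells *Hvcn1* and *Cybb*, macrophages *Cybb* and lymphocytes *Rac2*. The sort for CD11b+ Ly6C low or negative, Ly6G+ cells is a gate that lymphocytes and macrophages, which lack Ly6G, would fall outside. Their markers were detected all the same, and the purity of the sort is not given in the sources used here. The study states that this gate may take in other polymorphonuclear cells besides PMN-MDSCs. All 8 B cell markers were higher in Dhps cko, with summed levels of 64.9 and 67.7 FPKM in Dhps cko against 41.5 and 50.8 FPKM in Dhps flox and *Ighm*, the most abundant, at 40.6 and 42.9 against 27.0 and 32.0 FPKM. All 8 T cell markers were on the same side, at 18.5 and 15.0 against 11.9 and 8.01 FPKM, as were all 10 monocyte and macrophage markers, at 367 and 366 against 300 and 296 FPKM. The largest part of that sum is *Ly6c2*, an Ly6C gene, whose mean in Dhps cko was 118% of Dhps flox. The sort admitted cells low in Ly6C, so this transcript need not come from monocytes. *Marco*, a macrophage scavenger receptor gene, was at 15.6 and 16.2 FPKM in Dhps cko and 9.42 and 9.12 FPKM in Dhps flox, or 172%, and the complement genes *C1qa*, *C1qb* and *C1qc* were at 145%, 155% and 142%. These were the largest of the list, and its remaining genes were at 108% to 140%. At an unadjusted p under 0.05, 5 of the B cell, 3 of the T cell and 6 of the monocyte and macrophage markers were higher, beside 4.72% of all genes, and 0 of them passed after adjustment by limma. None of these markers was at 0 in all libraries. Of the eosinophil markers 2 and of the neutrophil markers 1 passed in the same way. The neutrophil gene was *Ly6g*, which encodes the marker of the sort, at 222 and 242 FPKM in Dhps cko and 195 and 185 FPKM in Dhps flox. Its log2 fold change of 0.29 (standard error 0.07, adjusted p = 0.53 from limma) was larger than that of any member. The 12 neutrophil markers summed to 77526 and 79945 FPKM in Dhps cko and 77509 and 73002 FPKM in Dhps flox. The 6 eosinophil markers summed to 13.99 and 12.4 against 9.32 and 9.06 FPKM, and the 6 erythroid markers overlapped at 553 and 671 against 465 and 689 FPKM. The 5 primary granule markers of early neutrophils overlapped as well, at 81.2 and 54.5 FPKM in Dhps cko and 46.3 and 56.5 FPKM in Dhps flox. The part of other cells in the members' values was not tested. In a bulk sample, fewer cells of a type and less RNA per cell cannot be told apart.

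By likeness of pattern, each member was set beside the 3758 other genes that averaged 10 FPKM or more, as the Euclidean distance between log2 values centred over the 4 libraries. The nearest genes were *Paxbp1* and *Wdr26* to *Cybb*, *Pilrb2* and *Plp2* to *Cyba*, *Cds2* and *Nrd1* to *Ncf1*, *Cdkn2d* and *Was* to *Ncf4*, *Heatr6* and *Mlst8* to *Rac2*, and *Rnf40* and *Sec13* to *Hvcn1*. The distances were 0.007 to 0.016 on the log2 scale. With 4 libraries such likeness is common, and between 397 (*Cyba*) and 1022 (*Ncf1*) genes lay within 0.1 of a member.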

How the data were processed

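Total RNA of PMN-MDSCs was extracted and sequenced by the authors on an Illumina NovaSeq. Reads were filtered with Cutadapt, aligned with HISAT2 and summarized with StringTie and ballgown, and the processing notes name mm10. The deposited values are FPKM per gene, rounded to 2 decimals by the authors, with no scaling between libraries stated. FPKM divide by mapped fragments, so abundant genes that take more fragments lower all others. Depth was approximated from steps between low FPKM of single-exon genes, of which 37.7% to 39.8% lay near a whole step (within 0.15) against 30% by chance, so whole reads were not recovered.

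From the deposited FPKM, log2(FPKM + 0.1) was compared between genotypes with limma 3.58.1 in R 4.3.3 (mean-variance trend, no block), over genes averaging 0.1 FPKM or more, with Benjamini-Hochberg adjustment and a threshold of 0.05. Fold changes on this scale understate changes of low genes. Coordinates are from GENCODE M21, which held 28511 of the gene identifiers. Python 3.11.15 was used for the other steps. The limma comparison and the depth estimate were tested on simulated data. The changes simulated for limma were much larger than those of the members, so that test does not cover changes of their size. Members and lists were chosen with earlier results of these data known. Named genes were the members, *Dhps*, *Lyz2*, the genes of a pathway list with an unadjusted p under 0.05 or among its 2 most abundant, the most abundant marker of a list, sex-linked genes and the 2 nearest genes per member. *Taldo1*, *Pgd*, *Idh2*, *Nnt*, *Irf1*, *Irf2*, *Irf8*, *Cybc1*, *Car4*, *S100a9*, *Marco*, *C1qa*, *C1qb*, *C1qc* and *Ly6g*, the NOX, DUOX and Rac homologues and the genes that overlap a member were outside this rule and named after their values were seen. The alternatives changed the pseudocount, the filter, the scaling or the variance model, added a replicate block, or left out 1 library. Protein sequences were not analysed here. Some genes of the lists are not reported here and were left out of the list counts.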

Additional observations from a re-analysis of the deposited data

How the results depend on the processing

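Of 84 combinations of the 6 members with 14 alternatives, 80 kept their direction and their side of the threshold. A change of filter or variance model, or the block, leaves the log2 fold change as it is, so direction could not turn in those. The exceptions were *Ncf1* scaled to TPM (-0.016) and by quantiles (-0.062), *Ncf4* by quantiles (-0.0037) and *Hvcn1* without Dhps flox replicate 2 (0.038). Leaving out 1 library moved the log2 fold change of *Hvcn1* between -0.069 and 0.038. Adjusted p over all alternatives ran from 0.54 to 1.0 by limma. The count of members with an unadjusted p under 0.05 was 1, and it was 0 with no filter on low values, scaled to TPM, scaled by size factors, without a trend, with each gene's own variance and with the replicate block, and between 0 and 1 with a library left out. After quantile normalization the 1 member was *Cybb* (-0.14, unadjusted p = 0.022 from limma) and not *Cyba*.

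Over all genes, 1 had an adjusted p under 0.05 by limma, 0 with a pseudocount of 0.01, with no filter or with each library left out, 2 by quantiles, 4 with a filter at a mean of 1 FPKM and 12 with each gene's own variance. By unadjusted p under 0.05 there were 1257 genes, but 819 with that filter and 746 to 1610 with a library left out (746 without Dhps cko replicate 2, 825 without Dhps cko replicate 1). Of the genes called this way 67.4% were higher in Dhps cko, 56.2% scaled to TPM and 49.9% to 71.0% with a library left out (49.9% without Dhps cko replicate 1). Of the genes around the oxidase 7 passed, 3 without a trend and 2 to 11 with a library left out (2 without Dhps flox replicate 1, 11 without Dhps flox replicate 2, 3 without either Dhps cko replicate). With the replicate number as a block, 0 genes had an adjusted p under 0.05 by limma, and 3 of the genes around the oxidase had an unadjusted p under 0.05. The adjusted p of *Cyba* was then 0.92 by limma. Its log2 fold change was 0.16 as before, which a block cannot change in this balanced design. The numbers were not shown to pair the libraries (r = -0.057 between deviations of same-numbered libraries across 10629 genes, which are not independent replicates). Levels of *Hvcn1* and *Sod3* rest on fewer fragments than those of *Cybb*, and counting error was not separated from other spread.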
